A study of Mus musculus with 2 samples.

Results

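Fatty acid oxidation enzymes are described here as a set of 32 genes, fixed by name: enzymes and transporters that break down fatty acids in mitochondria and peroxisomes, with a few proteins that supply or divert their substrates. Of these, 30 were matched to 51 probe sets that the platform annotation assigns to that 1 gene alone, out of 18193 genes so assigned on the array. The other 2, Acsl1 and Cpt1b, had no such probe set and were not analysed here. The glomerulus is the filtering unit of the kidney. Glomeruli came from 20-week-old male KK/Ta mice, a strain prone to obesity and diabetes, fed a high-fat diet (HFD, 1 array) or a normal chow diet (Chow, 1 array). The series text names 3 mice without saying how many animals stood behind an array or if RNA was pooled. Expression was measured on Affymetrix Mouse Genome 430 2.0 arrays, in which a probe set is a group of short oligonucleotides for 1 transcript.

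Mitochondrial beta-oxidation shortens an acyl-CoA by repeated cycles of dehydrogenation, hydration, a further dehydrogenation and thiolysis, and passes its electrons to the respiratory chain through the electron transfer flavoproteins. Long-chain fatty acids enter the mitochondrion as carnitine esters. Peroxisomes run a parallel cycle on very long, branched and dicarboxylic acids. In the kidney, proximal tubule cells depend heavily on fatty acid oxidation for energy, and many of these genes are targets of the nuclear receptor PPAR-alpha.

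Each value below is a single measurement without replicates, so no p-value or standard error is given and a difference describes these 2 RNA preparations only. Signals are the linear intensities deposited by the authors. A difference is HFD minus Chow on the log2 scale after centring both arrays on their probe set medians, which added 0.083 to every difference. A floor was set at that median (a signal of 42.3 for HFD and 44.9 for Chow). Signals of different probe sets depend on their probes and are not ranked between genes. The scatter of a gene is the scaled median absolute deviation of the differences of all genes in the same bin of signal, of 10 bins. It ran from 0.37 in the dimmest bin to 0.14 in the brightest and holds technical noise and real differences together. Over the 11360 genes above the floor on at least 1 array the median difference was 0.064. The 6 control probe sets of Gapdh and beta-actin lay higher, between 0.14 and 0.28 with a median of 0.25.

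All 13 measured podocyte markers were above the floor, Nphs1 of the slit diaphragm among them (5421 and 5427). Cell type markers differed between the arrays, given here with their summed deposited signals in HFD and Chow. Proximal tubule markers were higher in HFD for 17 of 18 genes, with a median of 0.56 and a sum of 16326 against 12996 (13 of 18 on the Gapdh and beta-actin scale). Markers of later nephron segments (loop, distal tubule, collecting duct) were higher for 9 of 10 genes (8864 against 6212), with Cldn16 and Scnn1g under the floor on both arrays. Macrophage and myeloid markers above the floor on both arrays, 9 in number, were all higher, and 3 more passed it through HFD alone (sum of the list 5703 against 2323), whereas 11 of 13 podocyte markers were lower (77274 against 87740). Endothelial (56676 against 53978) and mesangial sums (24568 against 24261) were closer. By gene, endothelial markers were higher for 10 of 12 (median 0.19) and mesangial markers for 4 of 7 (median 0.077). Of 6 adipocyte markers (sum 142 against 239), Adipoq, Cidec, Lep and Retn were under the floor on both arrays. The others were Car3 (41.9 in HFD, under the floor, against 138 in Chow) and Lipe (79.8 against 75.8). Hba-a1 and Slc4a1 among 4 red cell markers (sum 172 against 131) were also under the floor on both arrays. The part of these cell types in the values below was not tested, and in tissue RNA more cells of a type and more RNA per cell cannot be told apart.

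Most fatty acid oxidation genes differed little between the diets. Of the 30 measured members 26 were higher in HFD and 4 lower, with a median difference of 0.16 (1.12-fold). Among all genes 62.2% were higher and 37.8% lower by any amount on this scale. All 30 exceeded the floor in HFD, Chow or both, and 29 did so in both. Acox3 entered through the HFD array alone, and without it 25 of 29 were higher. Around the median difference of all genes, which splits all genes evenly by construction, 22 members lay above and 8 below, and a shift of the scale leaves that count as it is. The direction itself depends on the scale. Without centring 21 members were higher and 9 lower (5235 and 6124 over all genes). Centred on genes above the floor, 22 members were higher and 8 lower (5712 and 5648 over all genes). On the scale of the Gapdh and beta-actin controls, which moves every difference by -0.25, 9 were higher and 21 lower, with a median of -0.092 (-0.19 over all genes, of which 2178 were higher and 9182 lower). The 9 were Cpt1a, Crat, Hadha, Echs1, Decr1, Etfa, Acox3, Ehhadh and Acaa1a, so that each other member described as higher below is lower on that scale.

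On this scale only Hadha reached 1.5-fold. It did not without centring, when centred on genes above the floor, or on the Gapdh and beta-actin scale, where Acot1 did (-0.75). As centred here, that is 1 of 30 members higher and 0 lower, beside 4.23% of all genes higher and 1.42% lower by that much. None reached 2-fold, which 0.731% of genes did upward and 0.158% downward. At a log2 difference of 0.32 or more, 6 members were higher (Hadha, Ehhadh, Etfa, Decr1, Echs1 and Acaa1a) beside 13.6% of genes, and 1 was lower (Acot1) beside 6.29%. Set against scatter, 9 of 29 members stood above the all-gene median by more than their scatter, where 15.9% of genes did, and 2 stood below by more than it, where 16.9% did.

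**Figure D1:**
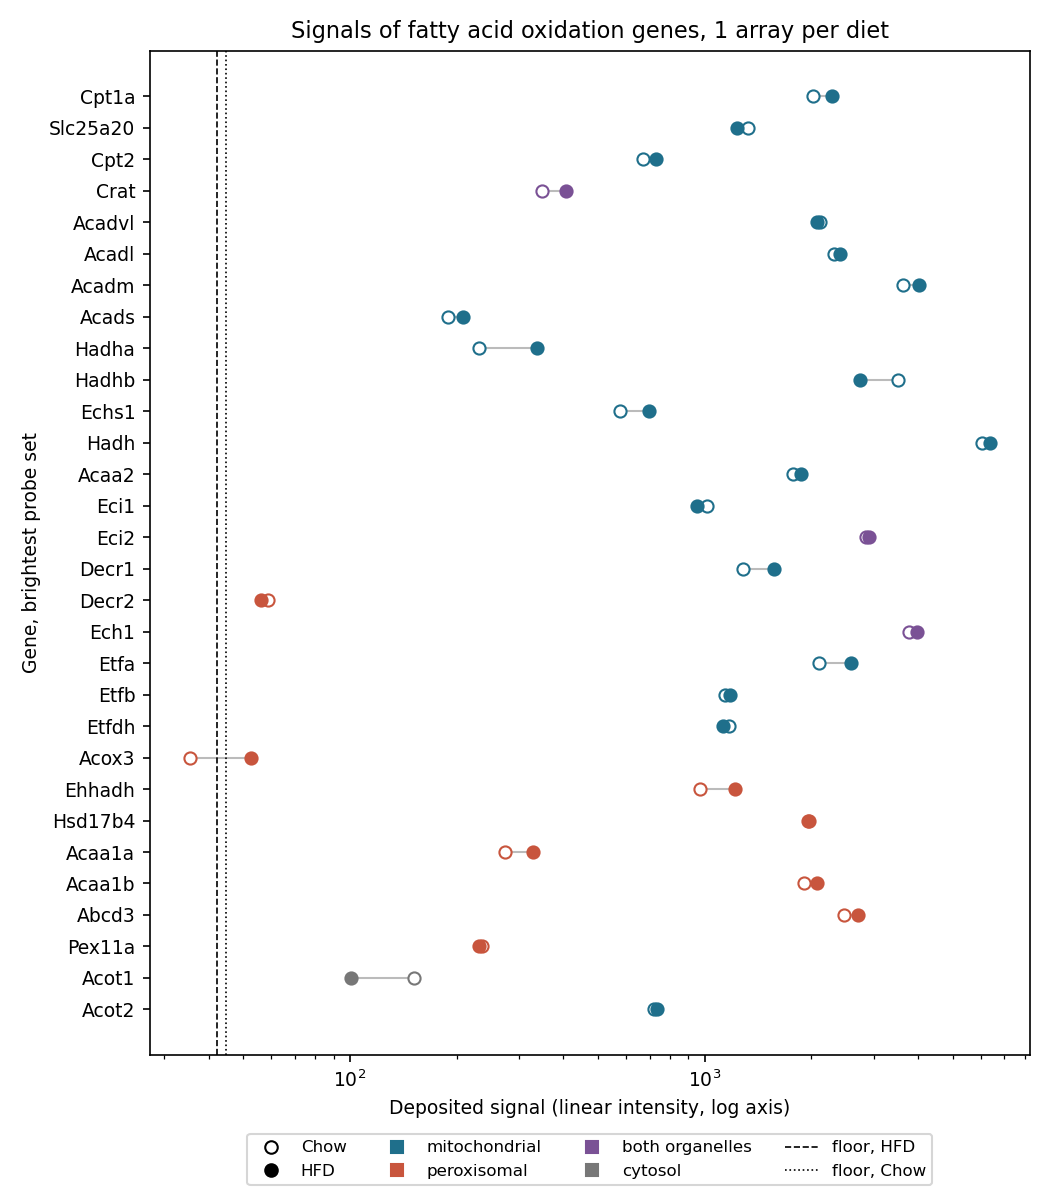
Deposited signal (linear intensity, log axis) of the brightest probe set of each of the 30 measured members, ordered by role and coloured by compartment, with Chow as open and HFD as filled points and the floors as dashed and dotted lines. The pairs lie close together for most genes, Hadha (337 against 231) and Acot1 (101 against 151) lie farthest apart among genes measured on both arrays, and the Chow value of Acox3 lies under the floor.

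Entry of fatty acids into the mitochondrion was covered by 4 measured genes, 3 of them slightly higher in HFD in their brightest probe set. Cpt1a, the carnitine palmitoyltransferase of the outer membrane and the regulated step of the pathway, had a signal of 2285 in HFD and 2016 in Chow, a difference of 0.26 (scatter 0.17). Its other probe sets, both of a type (_x_at) that may match other transcripts, went the opposite way, with 464 against 649 (-0.40) and 365 against 489 (-0.34). Its 3 probe sets therefore did not agree in direction. Slc25a20, the carnitine-acylcarnitine carrier of the inner membrane, had 1232 against 1325 (-0.023), and a further probe set had 717 against 638 (0.25). Cpt2, which returns the acyl group to CoA in the matrix, had 730 against 670 (0.21, scatter 0.18). Crat, the acetyltransferase that exchanges short acyl groups between CoA and carnitine, had 407 against 349 (0.31), with further probe sets at 0.054 and 0.044. No shuttle gene stood above the all-gene median by more than its scatter in all of its probe sets.

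The 4 acyl-CoA dehydrogenases, which take the first step of each cycle on chains of falling length, lay within a narrow range, all above 0 as centred here and all below 0 on the Gapdh and beta-actin scale. Acadvl, for very long chains, had 2071 against 2110, a difference of 0.057 after centring. Acadl, for long chains, had 2416 against 2324 (0.14). Acadm, for medium chains, had 4031 against 3629 (0.23, scatter 0.14), and Acads, for short chains, 209 against 189 (0.22, scatter 0.26). Of these, Acadm alone stood above the all-gene median by more than its scatter. Each of the 4 had 1 probe set above the floor.

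The later steps of the mitochondrial cycle held the largest difference as centred and floored here. With no floor Acox3 stood slightly higher (0.65), and on the Gapdh and beta-actin scale Acot1 was farther from 0 (-0.75). Hadha and Hadhb encode the alpha and beta subunits of the mitochondrial trifunctional protein, which carries out the last 3 reactions on long chains. Hadha (measured by 1 probe set) had a signal of 337 in HFD and 231 in Chow, a difference of 0.63 (1.54-fold, scatter 0.22). Without centring it was 0.54, and on the Gapdh and beta-actin scale 0.37. Hadhb, in contrast, gave 3 probe sets that disagreed. The brightest (also of the _x_at type) had 2748 against 3502 (-0.27, scatter 0.14). The next had 2811 against 2492 (0.26), and the third 62.6 against 60.9 (0.12). Both subunits are needed for the complex, but the arrays gave 1 value for Hadha and opposing values for Hadhb.

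Hadha and Hadhb lie head to head on chromosome 5, with 273 bases between their start sites, so a short stretch lies between both. The part of it in the window of Hadhb, 250 bases, is shown because the 2 genes encode 1 enzyme complex, and the bases next to the Hadha start are not included. The sequence is that of RefSeq, build GRCm38.p6, chr5:30155003-30155252, plus strand (that of Hadhb), and ends just before the start of Hadhb. Capitals mark its CpG dinucleotides, of which there are 17.
Hadha-Hadhb: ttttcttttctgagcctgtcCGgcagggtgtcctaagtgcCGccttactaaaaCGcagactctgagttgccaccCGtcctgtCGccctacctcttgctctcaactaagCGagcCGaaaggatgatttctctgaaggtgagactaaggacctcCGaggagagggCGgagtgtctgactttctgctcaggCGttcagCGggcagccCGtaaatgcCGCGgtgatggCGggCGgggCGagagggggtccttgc
The part shown is 58.8% G and C. The median over 29 windows of members was 60.3% with 17 CpG, and over all windows 52.7% with 7. Windows run from 250 bases before to 50 after a start.

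The remaining enzymes of the cycle were higher by small amounts, and here further probe sets went the same way where there were any. Echs1, the short-chain enoyl-CoA hydratase, had 699 against 578 (0.36, scatter 0.20). Hadh, the hydroxyacyl-CoA dehydrogenase of short and medium chains, had 6367 against 6039.8 (0.16), and further probe sets at 0.34 (1078 against 903) and 0.27 (171 against 151). Acaa2, the mitochondrial thiolase, had 1875 against 1778 (0.16), with 1444 against 1354 (0.18) and 508 against 411 (0.39). Hadh and Acaa2 were thus the members whose 3 probe sets all gave a positive difference of more than 0.1 after centring. On the Gapdh and beta-actin scale their brightest probe sets turned to -0.093 each.

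Enzymes that reshape unsaturated chains so that they can enter the cycle had differences within their scatter, apart from Decr1. Decr1, the mitochondrial dienoyl-CoA reductase, had 1569 against 1285 (0.37, scatter 0.17), but its other probe set had 436 against 500 (-0.11). Its peroxisomal counterpart Decr2 was near the floor on both arrays (56.2 against 58.8, a difference of 0.018 after centring, scatter 0.37). Eci1, the mitochondrial enoyl-CoA isomerase, had 954 against 1018 (-0.0089). Eci2, an isomerase found in both organelles, had 2902 against 2845 (0.11), and Ech1, the dienoyl-CoA isomerase, 3965 against 3757 (0.16).

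The 3 electron transfer genes had 1 probe set each above the floor. Etfa, the alpha subunit of electron transfer flavoprotein, had 2586 against 2102 (0.38, 1.30-fold, scatter 0.17). Etfb, its partner subunit, had 1181 against 1139 (0.13). Etfdh, the oxidoreductase that hands the electrons to ubiquinone, had 1129 against 1175 (0.026 after centring, and below 0 under each of the 5 other scalings). Etfa stood outside its scatter and the other two inside theirs.

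**Figure D2:**
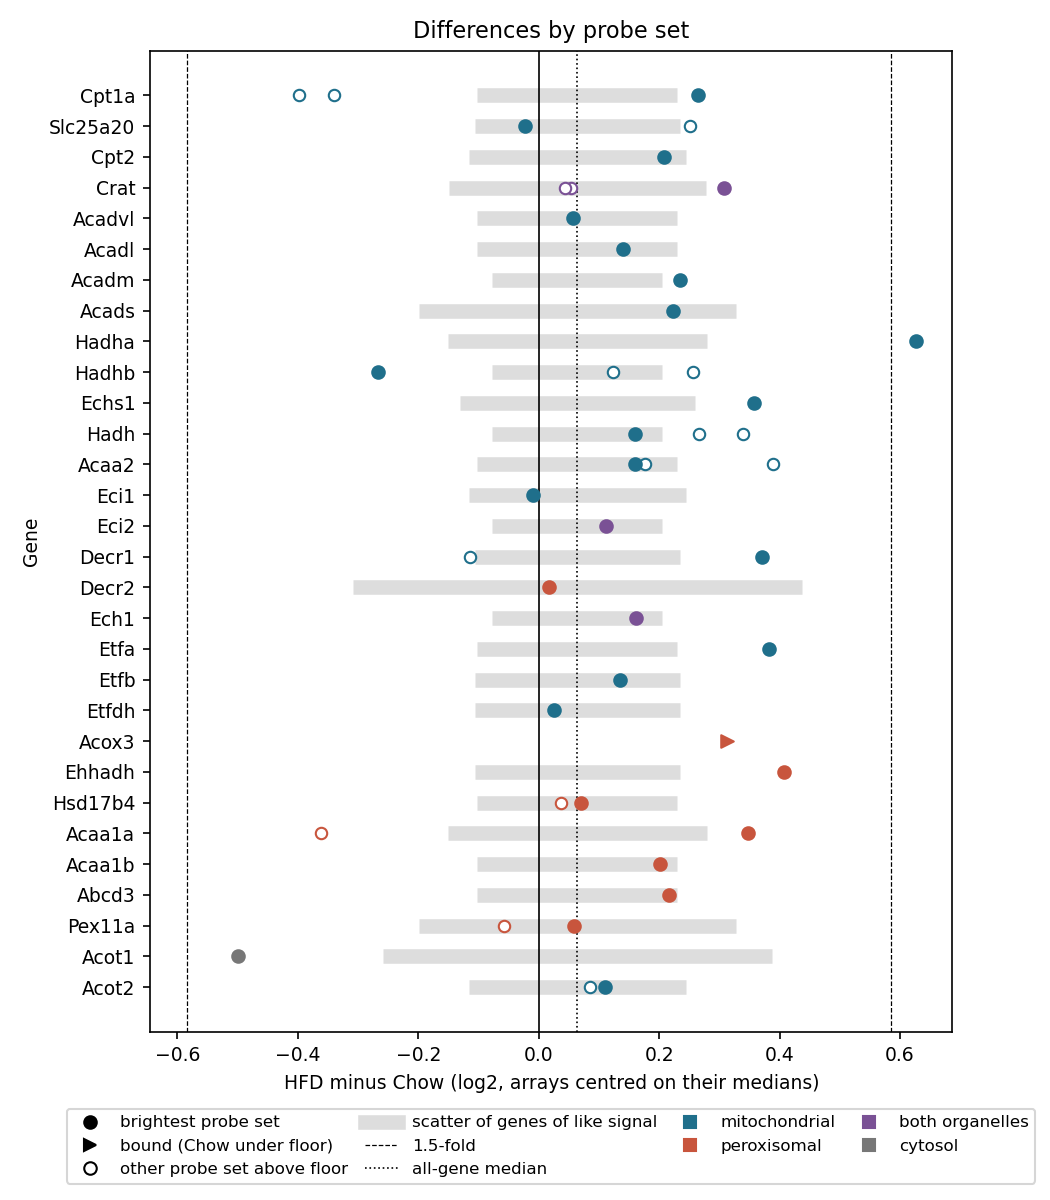
HFD minus Chow (log2, arrays centred on their medians) for each measured member, with filled points for the brightest probe set, open points for its other probe sets above the floor, and grey bars for the scatter of genes of like signal around the all-gene median. Hadha alone lies beyond 1.5-fold, and the open points of Cpt1a, Slc25a20, Hadhb, Decr1, Acaa1a and Pex11a lie across 0 from their filled points.

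Peroxisomal genes, 8 in all, were each higher in HFD in their brightest probe set, with a median of 0.21 (0.20 over the 7 other than Acox3, which passed the floor through HFD alone). Without centring 5 of 8 were higher, beside 5235 of 11360 genes. On the Gapdh and beta-actin scale 3 of 8 were, beside 2178 of 11360 genes. The 18 measured mitochondrial genes had a median of 0.16, with 15 higher and 3 lower, beside 62.2% of all genes higher. Both medians lay above that of all genes (0.064). No test compares them. With each gene taken as the median of its probe sets the order turned, to 0.081 for peroxisomal and 0.13 for mitochondrial genes. That run entered probe sets under the floor on both arrays at the floor, which lowered genes in both lists. Among them Abcd3 fell from 0.22 to 0.11 and Acox3 from 0.31 to 0.16, both peroxisomal. Of the mitochondrial genes, Acadl fell from 0.14 to 0.070 and Cpt2 from 0.21 to 0.10. The order also turned without probe sets that may match several transcripts, to 0.20 for peroxisomal and 0.22 for mitochondrial genes. That run left 7 peroxisomal genes, without Acaa1a. It used other probe sets for some genes, among them Hadhb (0.26) and Hadh (0.34). Crat, Ech1 and Eci2, which act in both organelles, were counted in neither, and their differences ran from 0.11 to 0.31.

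Within peroxisomal beta-oxidation, Ehhadh had the largest difference measured on both arrays. Ehhadh, the bifunctional hydratase and dehydrogenase known as a PPAR-alpha target, had 1217 against 971 (0.41, 1.33-fold, scatter 0.17) in its only probe set. Hsd17b4, the other bifunctional enzyme, which handles branched chains, had 1953 against 1972 (0.070 after centring), and a further probe set 1125 against 1161 (0.037). Of these 2 enzymes of the same steps, Ehhadh lay outside its scatter and Hsd17b4 inside it, and the difference between them was not tested. Acox3, an oxidase of branched chains, had 52.6 against 35.4, above the floor in HFD only, and was at least 1.24-fold higher as centred here. On the log2 scale this bound was 0.31 here, 0.23 without centring and 0.059 on the Gapdh and beta-actin scale. The other Acox3 probe set was under the floor on both arrays (5.4 against 10.3).

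The peroxisomal thiolases Acaa1a and Acaa1b are near-identical copies, so probe sets may not keep them apart. Acaa1b had 2069 against 1906 (0.20, scatter 0.17). Acaa1a had 328 against 273 (0.35), but its other probe set had 83.3 against 114 (-0.36). Both Acaa1a probe sets carry the suffix for possible matches to other transcripts. At the peroxisomal membrane, Abcd3, which imports acyl-CoA, had 2708 against 2469 (0.22, scatter 0.17). Pex11a, which takes part in peroxisome division, had 231 against 235 (0.059 after centring), with a second probe set at -0.057. Neither exceeded its scatter around the all-gene median.

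Acyl-CoA thioesterases, which release free fatty acids from CoA, held the lowest difference. Acot1, the cytosolic enzyme, had 101 in HFD and 151 in Chow (-0.50, 1.41-fold lower, scatter 0.32). Acot2, the mitochondrial enzyme of similar sequence, had 733 against 719.5 (0.11), with a further probe set at 0.086. A probe set assigned to Acot1 and Acot2 together had 131 against 134 (0.051). The lower value of Acot1 was thus seen in 1 dim probe set and not in the shared one.

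Disagreement between probe sets of a gene holds error within the arrays together with any difference between the transcripts they match. Of 16 further member probe sets above the floor on both arrays, 8 went the same way as the brightest and 8 the other way. Among 11 members with at least 2 such probe sets, the brightest 2 agreed in direction for 5 and differed by a median of 0.25. Over 4912 genes of the array 61.7% agreed and the median was 0.17. A size of 0.25 is larger than the difference of 19 of the 30 members. The 5 members whose further probe sets all agreed were Crat, Hadh, Acaa2, Hsd17b4 and Acot2. For 19 members there was a single probe set above the floor, among them Hadha, Ehhadh, Etfa, Echs1 and Acot1.

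**Figure D3:**
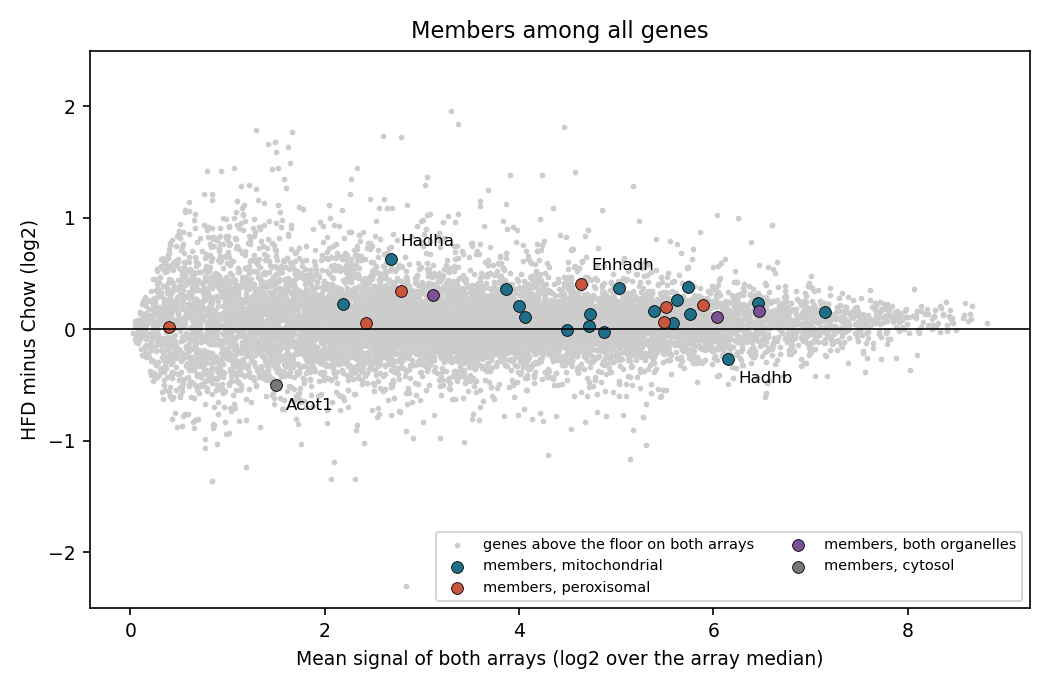
HFD minus Chow (log2) against the mean signal of both arrays (log2 over the array median) for the 10824 genes that exceeded the floor in both arrays in grey and for 29 members in colour by compartment. The members lie inside the cloud of all genes, between -0.50 (Acot1) and 0.63 (Hadha), and most lie slightly above 0.

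Other genes of the pathway outside the set were measured in 49 cases. Of these, 39 were higher and 10 lower, with a median of 0.25, beside 62.2% of all genes higher. On the Gapdh and beta-actin scale 25 were higher and 24 lower, with a median of 0.0019, beside 2178 of 11360 genes higher. As centred here, 7 were at least 1.5-fold higher and 0 as much lower, beside 4.23% and 1.42% of all genes. Among genes of activation and transport, Slc27a2, a fatty acid transporter and very long chain acyl-CoA synthetase abundant in proximal tubule, had 4636 against 2855 (0.78). The medium-chain acyl-CoA synthetases Acsm3, Acsm1 and Acsm2 differed by 0.70, 0.69 and 0.56. Proximal tubule markers were higher on the same array by a median of 0.56, and their part in these values was not tested.

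Genes outside the set were also split into lists drawn up by name, and the compartment of each enzyme, Eci3 and Acot12 included, was not checked. In the list drawn up as mitochondrial, Gcdh, a dehydrogenase of lysine breakdown, had 399.6 against 199 (1.09, 2.13-fold). Eci3, an enoyl-CoA isomerase, differed by 0.93, Acad10 by 0.74 and Acad11 by 0.56. In the list drawn up as peroxisomal, the thioesterase Acot12 had 230.3 against 128 (0.93), followed by the reductase Pecr (0.52), the thioesterase Acot3 (0.52) and the racemase Amacr (0.45). These genes were named for the largest differences of their lists, so their sizes are not set against those of the members, which were all named. In the mitochondrial list 14 of 17 genes were higher and 3 lower (median 0.23). In the peroxisomal list 11 of 15 were higher and 4 lower (median 0.28), beside 62.2% of all genes higher.

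Genes of the surrounding machinery had medians from 0.14 to 0.21, around that of the set (0.16). Beside them, 62.2% of all genes were higher, and 2178 of 11360 on the Gapdh and beta-actin scale. Of 17 citric acid cycle genes 16 were higher (4 on the Gapdh and beta-actin scale), with a median of 0.15, led by Idh3a (0.35), Dld (0.30), Suclg2 (0.29) and Sucla2 (0.28). Of 14 peroxisome biogenesis genes 10 were higher and 4 lower (2 and 12 on that scale), with a median of 0.14. Pex16 differed by 0.52, Pex13 by 0.27, Pex10 by -0.41 and Pxmp2 by -0.24. Ketone body genes were higher for 4 of 4 (median 0.21, and 2 of 4 on that scale), from Bdh2 at 0.61 and Bdh1 at 0.29 to Acat1 at 0.13 and Oxct1 at 0.032. Pex13 had a further probe set in the other direction.

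Regulators and indicators of the pathway showed no common direction. Of 22 above the floor 15 were higher and 7 lower, with a median of 0.064, as for all genes, of which 62.2% were higher. On the Gapdh and beta-actin scale 7 were higher and 15 lower, beside 2178 of 11360 genes higher. Pparg, the adipogenic nuclear receptor, had 194 against 134 (0.61), and Pdk4, the kinase that holds back glucose oxidation, 409 against 294 (0.56). Lower were Esrrg, an orphan receptor of mitochondrial genes (71.9 against 108, -0.50), and Angptl4, a lipoprotein lipase inhibitor and PPAR target (1176 against 1722, -0.47).

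**Figure D4:**
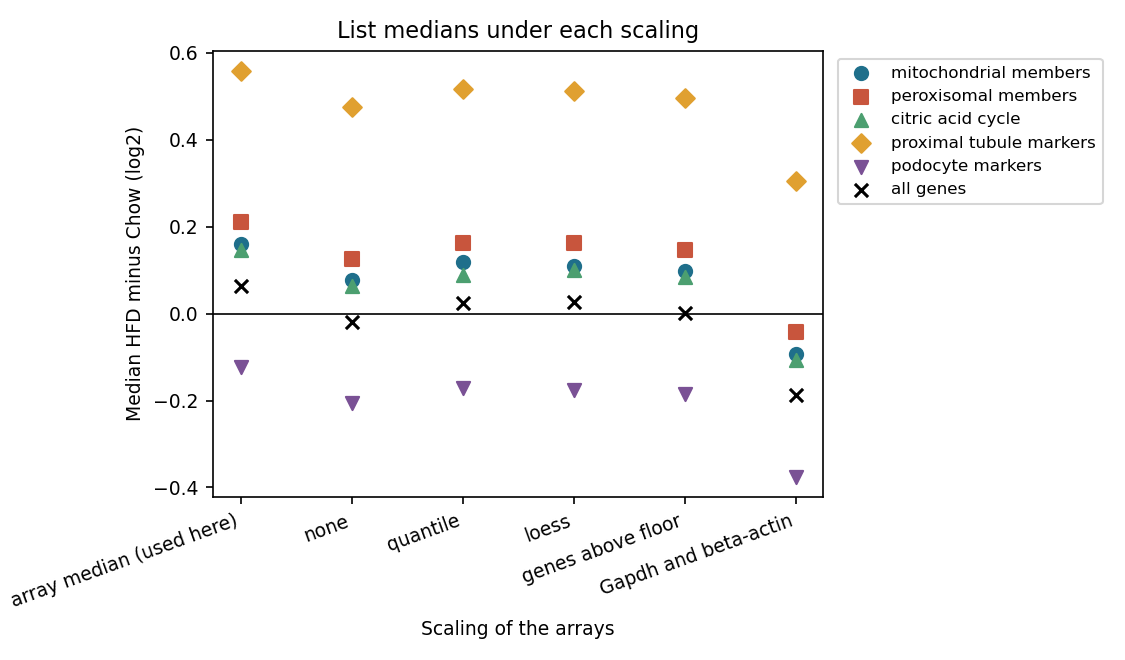
Median HFD minus Chow (log2) of mitochondrial and peroxisomal members, citric acid cycle genes, proximal tubule markers, podocyte markers and all genes under 6 scalings of the arrays. The array median, none, genes above floor and control scalings differ by a constant, so they cannot change the order of the lists. Both member medians lie above 0 except with the Gapdh and beta-actin controls, where they are -0.093 and -0.043.

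Promoter windows of RefSeq (GRCm38.p6), 300 bases each, were at hand for 27 members in 29 windows. They were searched on both strands for the PPAR element, a direct repeat of the half-site AGGTCA with 1 base of any kind between both copies, which therefore contains the half-site. An exact match was in 0 of 29 windows and in 0.0396% of all 32851. With at most 2 mismatches it was in 3 of 29 (Echs1, Etfa and Slc25a20) and in 3.86% of all. With at most 3 it was in 7 of 29 and in 24.6% of all. The half-site alone was in 4 of 29 (Acadm, Echs1, Acadvl and Cpt1a) and in 16.3% of all. Of the 6 members higher by a log2 difference of 0.32 or more, Decr1 had no window. Hadha, Ehhadh and Acaa1a had no such near match, and their best matches held 4, 4 and 5 mismatches. The near matches upstream of 2 others, Echs1 and Etfa, are shown with the element in capitals, from chr7:140116468-140116528 and chr9:55512284-55512344, each on the minus strand. That of Slc25a20 lay after its start.
Echs1: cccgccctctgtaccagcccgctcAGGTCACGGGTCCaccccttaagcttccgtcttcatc
Etfa: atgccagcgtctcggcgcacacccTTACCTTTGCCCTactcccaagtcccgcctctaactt
The Echs1 element began 83 bases before the start and the Etfa element, which reads AGGGCAAAGGTAA on the opposite strand, 77 bases before it. The CCAAT box was in 12 of 29 windows (37.4% of all) and the TATA box, TATAAA, in 0 of 29 (13.6% of all). A match describes the letters of these windows and not binding, and a link to the differences was not tested.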

How the data were processed

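Total RNA was labelled in 2 cycles, per the labels' protocols, and hybridised to 1 array per diet, and the series text names GeneSpring 7.3.1 for the authors' comparison. The authors deposited linear probe set intensities from 0.0534 to 19853. Their summarisation and scaling are not stated in the labels or the file. The 64 control probe sets were set aside, log2 values were centred on the median of the other 45037 on each array, and values under the 50th percentile were raised to it. Gene names came from the 2016 platform annotation: 34945 probe sets named 1 gene, 932 several and 9160 were unnamed here. Of several probe sets for 1 gene, the brightest on average was used. The number of arrays limits the precision.

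No test was run, as each diet has 1 array. Members, gene lists, compartments and thresholds were chosen with earlier results of these data known. All members are named, and up to 4 genes of each other list, those with the largest difference above the floor on both arrays. Nphs1, Car3 and markers under the floor are named besides. Other pathway genes, cell type markers and promoter windows were handled in Python 3.11.15 with pandas 2.3.3 and statsmodels 0.14.6. Simulated data were used only to check that planted differences of 1.5-fold or more were recovered under median, quantile and loess scaling. The gene lists, marker sums and promoter search were not part of that check. The alternatives were 5 other scalings, 3 floors (30th and 70th percentile, none), adding the 25th percentile, 2 other probe set rules, other folds and other compartments.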

Additional observations from a re-analysis of the deposited data

Results flagged for a closer look

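Probe sets that the annotation assigns to several genes were left out of the comparison of the members and had a higher value in HFD than in Chow after centring in 3 cases above the floor. Those of Acaa1a and Acaa1b together stood at 0.13 (789.5 in HFD against 764 in Chow) and 0.27 (2407 against 2111), and that of Acot1 and Acot2 at 0.051 (131 against 134). A probe set for Cpt1b, Chkb and Gm44502 was under the floor on both arrays.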

How the results depend on the processing

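Without replicates no result has a test. Centring on the Gapdh and beta-actin controls turned the medians of mitochondrial, peroxisomal and all members to -0.093, -0.043 and -0.092, since it moves every difference by -0.25, the median of all genes included. Taking each gene as the median of its probe sets, the peroxisomal median was 0.081. Probe sets under the floor on both arrays entered that run at the floor, which lowered it. Without probe sets that may match several transcripts, the peroxisomal median (0.20, Acaa1a not measured) was also under the mitochondrial one (0.22). Without centring the median of all members fell from 0.16 to 0.077, that of mitochondrial members from 0.16 to 0.076 and that of peroxisomal members from 0.21 to 0.13. Centred on genes above the floor, they were 0.098, 0.097 and 0.15. The rest moved a median by less than 0.1. The count of members at least 1.5-fold different was 1 (Hadha; Acot1 with the controls as reference); it was 0 without centring and 0 when centred on genes above the floor, 2 with the floor at the 30th percentile and 2 with no floor, 7 at a log2 difference of 0.32 and 0 at 2-fold. Of the members that were higher, 7 stayed above 0 in every alternative that measured them: Crat, Echs1, Decr1, Etfa, Hadha, Ehhadh and Acox3. For Acox3 this says less, because it passed the floor through HFD alone and was not measured with the highest floor. Its Chow value was raised to the floor, which favours a positive sign wherever that floor applied. With no floor its brightest probe set stood at 0.65, and its other probe set, under the floor on both arrays, at -0.86. Each other scaling lowers all-gene differences, so signs below 0 (Eci1 and Acot1, with 1 probe set each) were not put to a test. Dim probe sets limit Acox3 and Decr2, which lie near the floor. No paired analysis was possible because each diet has 1 array.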
